A study of Homo sapiens with 16 samples.

Results

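Integrins are the cell-surface receptors that hold cells to their matrix, and laminins are among the matrix proteins they hold. All genes whose single symbol in the platform annotation names an integrin α chain, an integrin β chain or a laminin α, β or γ chain were taken, a rule that uses symbols and no measured value. It gave 33 genes of 11963 on the array, 16 of them integrin α chains, 7 integrin β chains and 10 laminin chains. They are measured by 68 of 19064 probe sets, and no member was filtered out for a low value. The study hybridised RNA of 4 human breast cell lines to 16 Affymetrix U133 2.0 arrays, in 8 groups of 2. LM24175 and MDAMB231 are the lines called invasive: they were stably infected with a construct that expresses RECK constitutively (RECK) or with an empty vector (EV). MDAMB231 is MDA-MB-231, a triple-negative breast cancer line, and LM24175 was selected from it for growth in the lung, so these lines share their origin. Hs606T and Hs343T are the lines called poorly invasive: they were transfected with an siRNA labelled as directed at RECK (siRECK) or with a scramble siRNA (siSCR). RECK is a membrane-anchored protein that inhibits metalloproteinases, the enzymes that cut matrix proteins. The labels do not say whether infected cells were kept as a pool or as 1 clone, nor whether replicate arrays stand for independent cultures, so each p-value measures the spread between arrays, which may be technical.

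An integrin is a pair of 1 α and 1 β chain, and the pair decides the ligand. The β1 chain joins most α chains: with α1, α2 or α10 it binds collagens, with α3, α6 or α7 laminins, with α5 or α8 fibronectin and other proteins that carry an RGD motif, and with α4 or α9 ligands such as VCAM1, fibronectin or tenascin. The αV chain pairs with β1, β3, β5 or β8, and the β8 pair is known for activating latent TGF-β. The β4 chain pairs with α6 in hemidesmosomes, the anchors of epithelial cells, while β2 and β7 and their α chains belong to leukocytes. A laminin is a trimer of 1 α, 1 β and 1 γ chain and a main component of basement membranes. The β3 chain is part of the laminin of epithelial anchoring, the α5 chain is widespread in epithelial basement membranes, and the α4 chain is made by endothelial, muscle and other mesenchymal cells.

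The promoters of 5 members are shown first, since LAMB3, ITGA6, ITGA4 and LAMA4 differed most between lines and ITGB8 most on the arrays labelled siRECK, as the 250 bases before a RefSeq transcription start on GRCh38.p14, 5′ to 3′ on the gene's strand. RefSeq promoters could be matched for 23 of the 33 members, with 30 windows in all. Capitals mark matches on either strand to TGANTCA, the AP-1 element, or to GGGCGG, the GC box. LAMB3 has 3 listed starts, and the window at chr1:209651375-209651624 (minus strand) is given because it holds 1 match to each. ITGA6 has 2 listed starts, and the window at chr2:172427336-172427585 (plus strand) holds 3 GC boxes. ITGB8 has its window at chr7:20330650-20330899 (plus strand) with 2 GC boxes. For LAMA4, at chr6:112254568-112254817 (minus strand), and ITGA4, at chr2:181457136-181457385 (plus strand), no match to any motif searched lies in the window. Which of several starts the arrays measured is not known here.
LAMB3: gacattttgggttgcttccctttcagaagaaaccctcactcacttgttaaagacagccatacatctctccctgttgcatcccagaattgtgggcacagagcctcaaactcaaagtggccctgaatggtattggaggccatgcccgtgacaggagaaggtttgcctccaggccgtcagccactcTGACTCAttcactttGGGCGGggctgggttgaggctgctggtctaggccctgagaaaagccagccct
ITGA6: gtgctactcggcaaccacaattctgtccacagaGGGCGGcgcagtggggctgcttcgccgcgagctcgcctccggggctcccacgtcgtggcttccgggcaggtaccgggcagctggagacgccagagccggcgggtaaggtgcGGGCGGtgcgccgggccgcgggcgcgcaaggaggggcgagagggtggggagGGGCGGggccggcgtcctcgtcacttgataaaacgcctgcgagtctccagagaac
ITGB8: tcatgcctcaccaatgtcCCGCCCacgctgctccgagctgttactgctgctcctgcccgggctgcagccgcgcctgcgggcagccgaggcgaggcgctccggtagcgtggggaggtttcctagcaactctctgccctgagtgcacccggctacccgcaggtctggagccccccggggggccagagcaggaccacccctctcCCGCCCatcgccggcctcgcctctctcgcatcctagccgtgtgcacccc
LAMA4: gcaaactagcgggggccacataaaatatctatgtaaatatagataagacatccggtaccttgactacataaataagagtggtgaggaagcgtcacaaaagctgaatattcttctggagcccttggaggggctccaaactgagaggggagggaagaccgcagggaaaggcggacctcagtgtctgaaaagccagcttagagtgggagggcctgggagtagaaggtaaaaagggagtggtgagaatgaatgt
ITGA4: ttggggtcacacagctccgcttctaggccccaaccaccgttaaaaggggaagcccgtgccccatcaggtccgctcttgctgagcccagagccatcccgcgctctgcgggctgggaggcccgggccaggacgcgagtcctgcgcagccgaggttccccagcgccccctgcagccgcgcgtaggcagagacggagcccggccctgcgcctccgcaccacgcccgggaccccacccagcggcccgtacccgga
Of all 35116 RefSeq windows of this length, 6.57% hold TGANTCA and 42.6% hold GGGCGG, against 1 and 16 of the 30 member windows. The other motifs searched on both strands were the core of the interferon-stimulated response element, in 3.02% of all windows and in a window of ITGB5, and GGGNNTTCC, an NF-κB-like motif, in 5.78% of all windows and in windows of ITGA1 and ITGA5. The GC box lies in windows of 13 members. A match is a description of the letters and shows no binding.

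Several facts of the whole series bear on the members. Array medians lay between 6.42 and 6.56 log2 units, lower quartiles between 4.47 and 4.67, and arrays of 1 group correlated at 0.994 to 0.998 across probe sets. RECK itself went against the siRNA labels: its highest probe set read 11.17 and 11.02 on the Hs606T siRECK arrays, against 8.74 and 8.65 on the Hs606T siSCR arrays, and 11.31 and 11.24 on the Hs343T siRECK arrays, against 6.07 and 5.52 on the Hs343T siSCR arrays. In the construct lines RECK did not pass (log2 difference -0.42, adjusted p = 0.154 in LM24175; 0.03, adjusted p = 0.962 in MDAMB231). Directions below are therefore those of the labels, with siRECK and siSCR used as names of arrays. Replicate 1 of MDAMB231 EV and replicate 1 of LM24175 RECK differed from their replicates in like ways (r of the within-group differences 0.486 over all genes and 0.611 over the 33 members, a description over genes that share 2 pairs of arrays). Of the 33 members, 9 read at least 0.5 log2 units lower on replicate 1 than on replicate 2 of MDAMB231 EV and 2 did so in LM24175 RECK, so counts of members that rest on these arrays are also given without both. Of 9 mesenchymal markers, all lay at or above the array median in Hs606T and Hs343T, where EPCAM, CDH1, CLDN4, ESRP1 and GRHL2 lay under it on both siSCR arrays of each line. The keratins of the epithelial list went otherwise. KRT18 and KRT19 averaged 8.34 and 10.68 in Hs606T siSCR and 10.18 and 9.85 in Hs343T siSCR, above the median. KRT8 lay under it on both arrays of Hs606T siSCR but not of Hs343T siSCR. In the invasive EV arrays the epithelial markers EPCAM, KRT8, KRT18 and KRT19 lay above the median, while CDH1, ESRP1 and GRHL2 did not.

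Over the 16 arrays, 11 members lay above the array median everywhere: the integrin chains ITGA2, ITGA5, ITGA6, ITGAE, ITGAV, ITGB1 and ITGB5 and the laminin chains LAMA5, LAMB1, LAMB2 and LAMC1. Another 12 lay under the median on all 16 arrays, of which ITGA8, ITGA9 and LAMB4 were also under the lower quartile on all. The remaining members of that kind were the leukocyte chains ITGAL, ITGAM, ITGAX and ITGB7, the platelet chain ITGA2B, and ITGA7, ITGB8, LAMA1 and LAMC3. The last 10 crossed the median: ITGA1, ITGA3, ITGA4, ITGA10, ITGB2, ITGB3, ITGB4, LAMA2, LAMA4 and LAMB3. ITGB1, the common partner chain, varied least of the 11 members above the median, between 13.37 and 13.99 on all arrays. LAMA4 spanned the widest range of the 33, between 4.30 and 11.52. In the 9 comparisons that follow, 8 members never passed: ITGA2, ITGA2B, ITGA8, ITGA9, ITGA10, ITGAL, LAMA1 and LAMB4, of which ITGA2 and ITGA10 passed in 2 comparisons of lines without both deviating arrays. The heatmap of all members shows lines, rather than treatments, as the visible blocks.

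**Figure D1:**
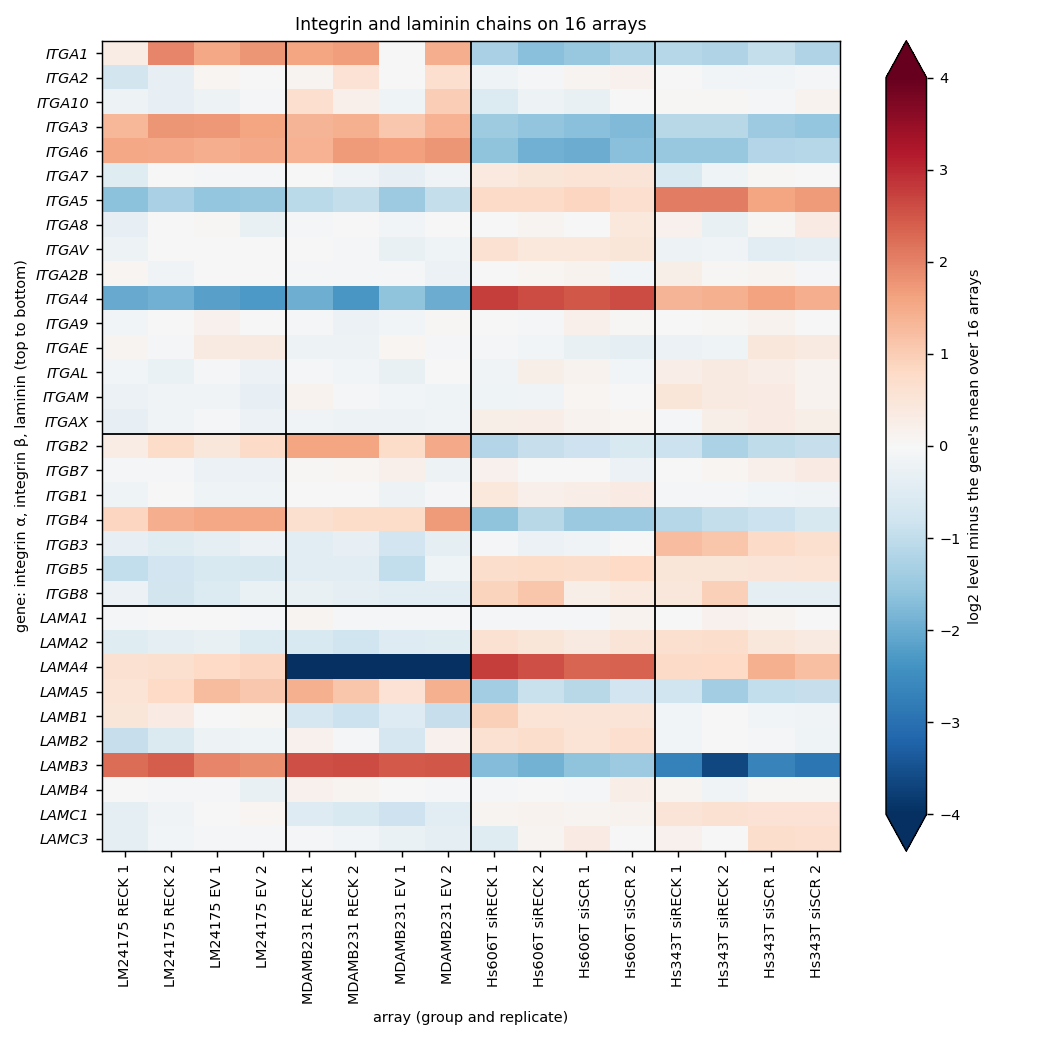
Log2 level of each of 33 integrin and laminin genes (1 row each) on each of 16 arrays (1 column each), minus the gene's mean over the 16 arrays; colours saturate at -4 and 4. LAMB3, ITGA6, ITGA3 and ITGB4 are red in LM24175 and MDAMB231 and blue in Hs606T and Hs343T, ITGA4 and ITGA5 run the other way, and LAMA4 is dark blue in MDAMB231 alone.

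The invasive lines with empty vector and the poorly invasive lines with siSCR differed in the RNA levels of several laminin receptor chains and laminin chains. The invasive EV arrays were higher in the epithelial laminin chain LAMB3 and in ITGA6, ITGA3 and ITGB4, the α6, α3 and β4 chains that bind laminin, and in the collagen-binding chain ITGA1. They were lower in ITGA4 and ITGA5, the chains for VCAM1 and fibronectin. The mesenchymal laminin α4 chain LAMA4 was lower on average, but far lower only in MDAMB231. In the fit over all genes 8 of the 33 members were higher and 15 lower with adjusted p under 0.05, against 34.2% and 38.8% of all genes (72.9% in either direction), a share of the members (69.7%) near that background. In such bulk RNA fewer cells of a type and less RNA per cell cannot be told apart. At least 4-fold differences were found for 9 of 33 members (27.3%), against 7.93% of all genes. All 4 arrays on each side stood apart without overlap for 18 of 33 members, against 54.0% of all genes. Without both deviating arrays 10 members were higher and 16 lower, against 73.0% of all genes, with ITGA2, ITGA10 and ITGB7 gained.

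Among the laminin receptors, ITGA6 read 12.08 and 12.14 on LM24175 EV arrays and 12.28 and 12.38 on MDAMB231 EV arrays, against 8.64 and 8.94 on Hs606T siSCR arrays and 9.44 and 9.48 on Hs343T siSCR arrays. Every invasive array was higher, by 8.53-fold on average (95% interval 7.42 to 9.79; adjusted p = 1.93e-11). The partner of ITGA6 in hemidesmosomes, ITGB4, read 8.34 and 8.34 in LM24175 EV and 7.51 and 8.48 in MDAMB231 EV, against 5.31 and 5.34 in Hs606T siSCR and 5.94 and 6.14 in Hs343T siSCR. The groups again did not overlap, although the MDAMB231 EV arrays lay far apart (5.60-fold; 95% interval 4.19 to 7.49). This gap is that of the highest of 4 ITGB4 probe sets, and the others showed no gap of that size. The next highest averaged 4.71 in LM24175 EV and 5.07 in MDAMB231 EV, against 4.39 in Hs606T siSCR and 4.73 in Hs343T siSCR. Another averaged 3.62 in LM24175 EV and 3.71 in MDAMB231 EV, against 3.73 in Hs606T siSCR and 3.85 in Hs343T siSCR. The last averaged 4.40 in LM24175 EV and 4.25 in MDAMB231 EV, against 4.13 in Hs606T siSCR and 4.58 in Hs343T siSCR. With the mean of all ITGB4 probe sets the log2 difference was 0.66 and still passed. That mean includes the highest probe set, so it is not a separate check of the gap. ITGA3 read 9.80 and 9.66 in LM24175 EV and 9.17 and 9.48 in MDAMB231 EV, against 6.40 and 6.30 in Hs606T siSCR and 6.63 and 6.53 in Hs343T siSCR. It lay near the array median in the poorly invasive lines and well above it in the invasive ones (8.35-fold; 95% interval 7.19 to 9.70). ITGA7, the muscle laminin receptor chain, went the other way by a small step, with a log2 difference of -0.43 (SE 0.11; adjusted p = 0.00376), and stayed under the median everywhere.

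Collagen-binding chains differed from each other. ITGA1 read 6.74 and 6.96 in LM24175 EV and 5.23 and 6.67 in MDAMB231 EV, against 3.69 and 3.93 in Hs606T siSCR and 4.26 and 3.99 in Hs343T siSCR. The lowest invasive array, replicate 1 of MDAMB231 EV, was still above every poorly invasive one (log2 difference 2.43, SE 0.34; adjusted p = 3.27e-05). ITGA2, a strongly measured chain, differed by 0.15 (95% interval -0.16 to 0.47) and ITGA10 by 0.20 (95% interval -0.25 to 0.64), and neither passed. Without both deviating arrays both passed, ITGA2 at 0.33 (adjusted p = 0.0177) and ITGA10 at 0.49 (adjusted p = 0.0111).

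The chains for fibronectin and VCAM1 were lower in the invasive lines. ITGA4 read 3.29 and 3.18 in LM24175 EV and 3.85 and 3.50 in MDAMB231 EV, against 7.95 and 8.07 in Hs606T siSCR and 7.08 and 6.92 in Hs343T siSCR. The invasive arrays lay under the lower quartile and the poorly invasive arrays above the median (log2 difference -4.05; adjusted p = 3.28e-12). With no detection calls the invasive values are not shown to lie above background, so no fold is given. ITGA5, the main fibronectin receptor chain, read 7.45 and 7.47 in LM24175 EV and 7.52 and 8.03 in MDAMB231 EV, against 9.86 and 9.67 in Hs606T siSCR and 10.55 and 10.68 in Hs343T siSCR. It was above the median in all lines and 5.95-fold lower in the invasive ones (95% interval 5.06 to 6.99). The chain ITGAV differed by only -0.13 and did not pass. Among its partners, ITGB5 read 10.61 and 10.57 in LM24175 EV and 10.25 and 11.06 in MDAMB231 EV, against 11.93 and 12.02 in Hs606T siSCR and 11.73 and 11.78 in Hs343T siSCR, a difference of -1.24 (SE 0.13). ITGB3 read 5.76 and 5.86 in LM24175 EV and 5.35 and 5.72 in MDAMB231 EV, against 5.98 and 6.09 in Hs606T siSCR and 6.88 and 6.76 in Hs343T siSCR (difference -0.75, SE 0.09). Both β chains were lower on all 4 invasive arrays, ITGB3 with a narrow gap to Hs606T.

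The laminin chains split as well. LAMB3 read 10.72 and 10.62 in LM24175 EV and 11.23 and 11.24 in MDAMB231 EV, against 7.18 and 7.33 in Hs606T siSCR and 6.10 and 5.90 in Hs343T siSCR. It was 20.1-fold higher in the invasive lines (95% interval 15.9 to 25.4; adjusted p = 1.05e-10), with no overlap between arrays. LAMA5 read 9.23 and 9.05 in LM24175 EV and 8.56 and 9.39 in MDAMB231 EV, against 6.87 and 7.20 in Hs606T siSCR and 6.99 and 7.06 in Hs343T siSCR, 4.07-fold higher in the invasive lines. LAMA2, the α chain of muscle and peripheral nerve, read 5.98 and 5.73 in LM24175 EV and 5.76 and 5.78 in MDAMB231 EV, against 6.64 and 6.80 in Hs606T siSCR and 6.73 and 6.64 in Hs343T siSCR. It was lower on every invasive array (difference -0.89, SE 0.07). The γ1 chain LAMC1 was lower as well (difference -0.64). The β chains LAMB1 (-0.54) and LAMB2 (-0.46) were lower on average, with overlap between arrays. LAMB1 read 9.48 and 9.53 in LM24175 EV and 9.00 and 8.58 in MDAMB231 EV, against 10.00 and 10.02 in Hs606T siSCR and 9.37 and 9.35 in Hs343T siSCR, so LM24175 lay above Hs343T. LAMB2 read 8.23 and 8.26 in LM24175 EV and 7.77 and 8.59 in MDAMB231 EV, against 8.97 and 9.09 in Hs606T siSCR and 8.35 and 8.27 in Hs343T siSCR. Replicate 2 of MDAMB231 EV lay above both Hs343T arrays, and without both deviating arrays the LAMB2 difference was -0.25.

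For LAMA4 too, and by far more, the average over the invasive lines hides a split between them. It read 9.56 and 9.64 in LM24175 EV but 4.76 and 4.53 in MDAMB231 EV, against 11.10 and 11.13 in Hs606T siSCR and 10.19 and 9.98 in Hs343T siSCR. MDAMB231 sat close to the lower quartile of the array, while LM24175 lay a little under Hs343T. The averaged difference of -3.47 (SE 0.07) therefore describes neither invasive line.

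Leukocyte chains were low apart from ITGAE and ITGB2. ITGB2, the common β chain of leukocyte integrins, read 5.56 and 5.88 in LM24175 EV and 5.86 and 6.63 in MDAMB231 EV, against 4.30 and 4.50 in Hs606T siSCR and 4.09 and 4.21 in Hs343T siSCR (difference 1.71, SE 0.17). Every invasive array was higher, yet only replicate 2 of MDAMB231 EV exceeded its array's median. Its α partners ITGAM and ITGAX were lower, at -0.33 and -0.36, and ITGAL did not pass (-0.24, adjusted p = 0.0509). All 7 leukocyte markers measured, PTPRC (CD45) among them, lay under the median on every invasive EV array, with summed log2 levels of 29.7 to 31.4 in the invasive EV groups, against 32.1 to 33.6 in the siSCR groups.

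The line contrast carries other differences. The 9 mesenchymal markers moved with it, with summed log2 levels of 51.2 to 56.7 on the invasive EV arrays, against 106.4 to 113.1 on the siSCR arrays. In the same fit COL1A1 differed by -6.65 and VIM by -0.18, while EPCAM was higher by 4.32 and CDH1 differed by -0.26. The part of this cell identity in the members' differences was not tested, and the virus vector, the siRNA transfection and the line cannot be told apart. The epithelial list summed to 57.4 to 61.6 on the invasive EV arrays, against 46.9 to 48.8 on the siSCR arrays.

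**Figure D2:**
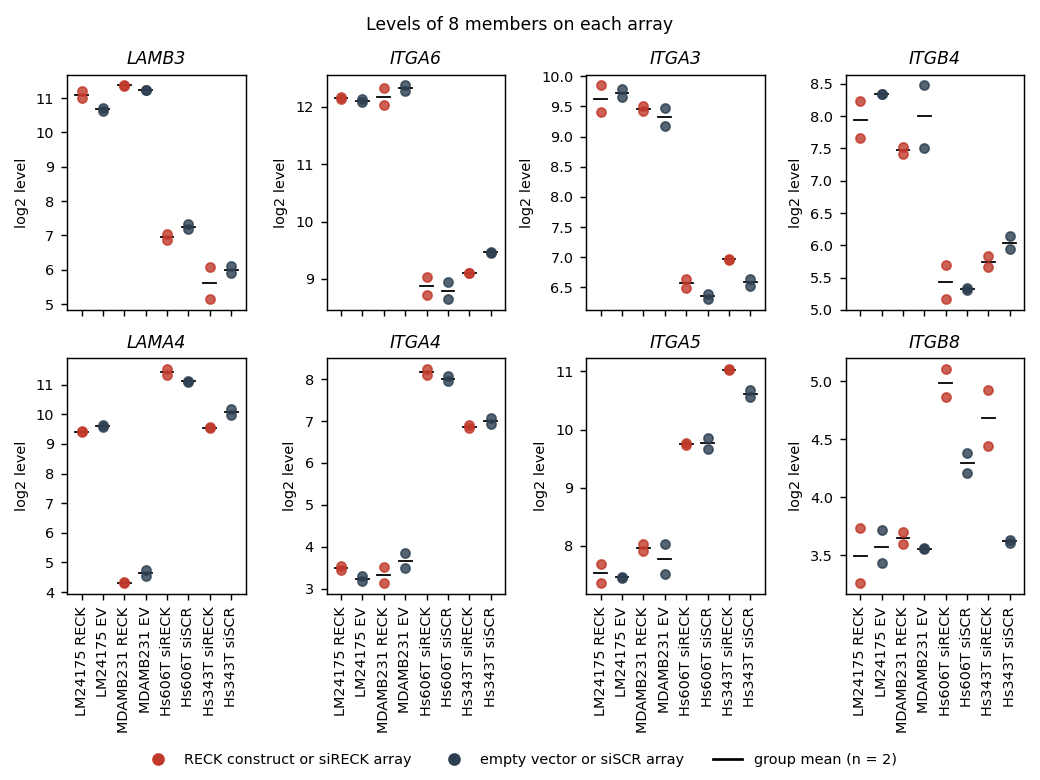
Log2 level of 8 members on each array (points) with group means (bars, n = 2), red for RECK construct or siRECK arrays and dark for empty vector or siSCR arrays; each panel has its own axis, which does not start at 0. LAMB3, ITGA6, ITGA3 and ITGB4 are high in LM24175 and MDAMB231, ITGA4 and ITGA5 in Hs606T and Hs343T, LAMA4 is low only in MDAMB231, and ITGB8 reads higher on the siRECK arrays of both Hs606T, where it did not pass, and Hs343T.

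Between the related invasive lines, LM24175 EV against MDAMB231 EV, 3 laminin chains, LAMA4, LAMB1 and LAMC1, were higher. Of the 33 members 4 were higher and 1 lower, against 9.87% and 10.9% of all genes (20.8% in either direction), a share of members (15.2%) that is not above the background. LAMA4, with the values given above, was higher in LM24175 by 4.96 (adjusted p = 3.89e-11), against MDAMB231 values near the lower quartile that are not shown to lie above background. Differences of at least 4-fold that passed made up 0.711% of all genes, and LAMA4 was the member among them. LAMC1 and LAMB1, chains that can complete a trimer with it, were higher by less. The β chain LAMB2 was not called: it differed by 0.06 (adjusted p = 0.881). LAMC1 read 11.86 and 11.92 in LM24175 EV, against 11.03 and 11.40 in MDAMB231 EV (0.68, SE 0.12). LAMB1 read 9.48 and 9.53 in LM24175 EV, against 9.00 and 8.58 in MDAMB231 EV (0.72, SE 0.15). Neither pair of groups overlapped, but both calls were lost when only the arrays compared were fitted (adjusted p = 0.0504 for LAMB1 and 0.0508 for LAMC1). ITGAE read 11.44 and 11.44 in LM24175 EV, against 11.16 and 11.04 in MDAMB231 EV (0.34, SE 0.08; adjusted p = 0.0127), and this call was lost when 3 of the 4 arrays were left out in turn. ITGA4 was the member lower in LM24175, at 3.29 and 3.18 in LM24175 EV against 3.85 and 3.50 in MDAMB231 EV (-0.44, SE 0.14; adjusted p = 0.0435), and all 4 of these values lie under the lower quartile. That call was lost in 9 of 14 alternatives. Without both deviating arrays 4 members were higher and 6 lower, against 23.4% of all genes: ITGA4 lost its call, and ITGA2, ITGA5, ITGA10, ITGB2, ITGB5 and LAMB2 passed. Leaving out replicate 2 of MDAMB231 EV also raised the count of members, in a fit with 1 array left in that group.

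The 5 probe sets of LAMA4 differed in size but not in sign in that comparison, at 4.96, 1.81, 0.74, 0.54 and 0.43, of which the first 3 passed over all probe sets. Both LAMB1 probe sets (0.72 and 0.53) and both LAMC1 probe sets (0.68 and 0.32) passed. ITGA6 had a second probe set that was lower in LM24175, at -0.72 (adjusted p = 0.0017), whereas the first differed by -0.22 and did not pass. Of the 23 integrin ligands listed outside the laminins and collagens, 5 were higher and 4 lower, led by VCAM1, the ligand of α4 integrins (6.71), and FN1, fibronectin (1.75), with SPP1, osteopontin, lower (-1.90). Of 15 genes for basement membrane and other laminin receptors, 3 were higher and 1 lower, among them SPARC, a collagen-binding matrix protein (7.45), and FBLN1, fibulin 1 (1.96). Of 25 genes of the adhesion complex inside the cell, 6 were higher and 6 lower, and of 14 membrane partners 3 were higher, each read against 20.8% of all genes called. Markers of cell identity moved in this comparison too: the epithelial genes CLDN4 (-3.16) and KRT19 (-1.51) were lower in LM24175, the fibroblast collagen COL1A1 was higher (3.21), and of the endothelial genes PECAM1 was higher (0.62) and KDR lower (-1.08). Those were 2 of 8 epithelial, 1 of 9 mesenchymal and 2 of 5 endothelial genes, and their part in the members' differences was not tested.

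The poorly invasive lines differed from each other more broadly. Between Hs606T siSCR and Hs343T siSCR 9 members were higher and 7 lower, against 18.4% and 18.5% of all genes (36.8% in either direction, against 48.5% of the members). Among the laminin chains, LAMB3 read 7.18 and 7.33 in Hs606T siSCR, against 6.10 and 5.90 in Hs343T siSCR (1.25, SE 0.22), and LAMA4, with the values above, was higher by 1.03 (SE 0.10). LAMB2 read 8.97 and 9.09 in Hs606T siSCR, against 8.35 and 8.27 in Hs343T siSCR (0.72, SE 0.20). These chains were higher on both Hs606T arrays, whereas the γ chains went the other way. LAMC1 read 11.97 and 12.00 in Hs606T siSCR, against 12.41 and 12.41 in Hs343T siSCR (-0.43, SE 0.12), and LAMC3 read 5.52 and 5.20 in Hs606T siSCR, against 5.88 and 5.85 in Hs343T siSCR (-0.51, SE 0.17).

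Integrin chains differed in both directions in the same contrast. ITGAV read 12.14 and 12.19 in Hs606T siSCR, against 11.25 and 11.33 in Hs343T siSCR (0.87, SE 0.09). ITGB8, an αV partner, read 4.21 and 4.38 in Hs606T siSCR, against 3.60 and 3.63 in Hs343T siSCR (0.68, SE 0.18). All 4 of these ITGB8 values lay under the lower quartile and are not shown to lie above background. A further αV partner, ITGB3, went the other way, at -0.78 (SE 0.12), as did the fibronectin receptor chain ITGA5, at -0.85 (SE 0.15). ITGA4 was higher in Hs606T by 1.01 (SE 0.14). ITGA6 was lower, at -0.67 (SE 0.13). ITGAE read 10.77 and 10.74 in Hs606T siSCR, against 11.52 and 11.43 in Hs343T siSCR (-0.72, SE 0.08). ITGB1 was higher by 0.41 and ITGA7 by 0.51, and ITGB7 was lower, at -0.39. Several of these calls depended on single arrays: with the 4 arrays left out in turn, ITGA7 lost its call in 4 of 4, ITGB7, LAMC1 and LAMC3 in 3 of 4, LAMB2 in 2 of 4 and ITGB8 in 1 of 4. With the mean of all probe sets ITGB1 (0.16), LAMA4 (0.26) and ITGB8 (0.29) did not pass. The groups did not overlap for any of these genes, which were named because they passed. Over all members this held for 24 of 33 (72.7%), near the 71.0% of all genes.

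**Figure D3:**
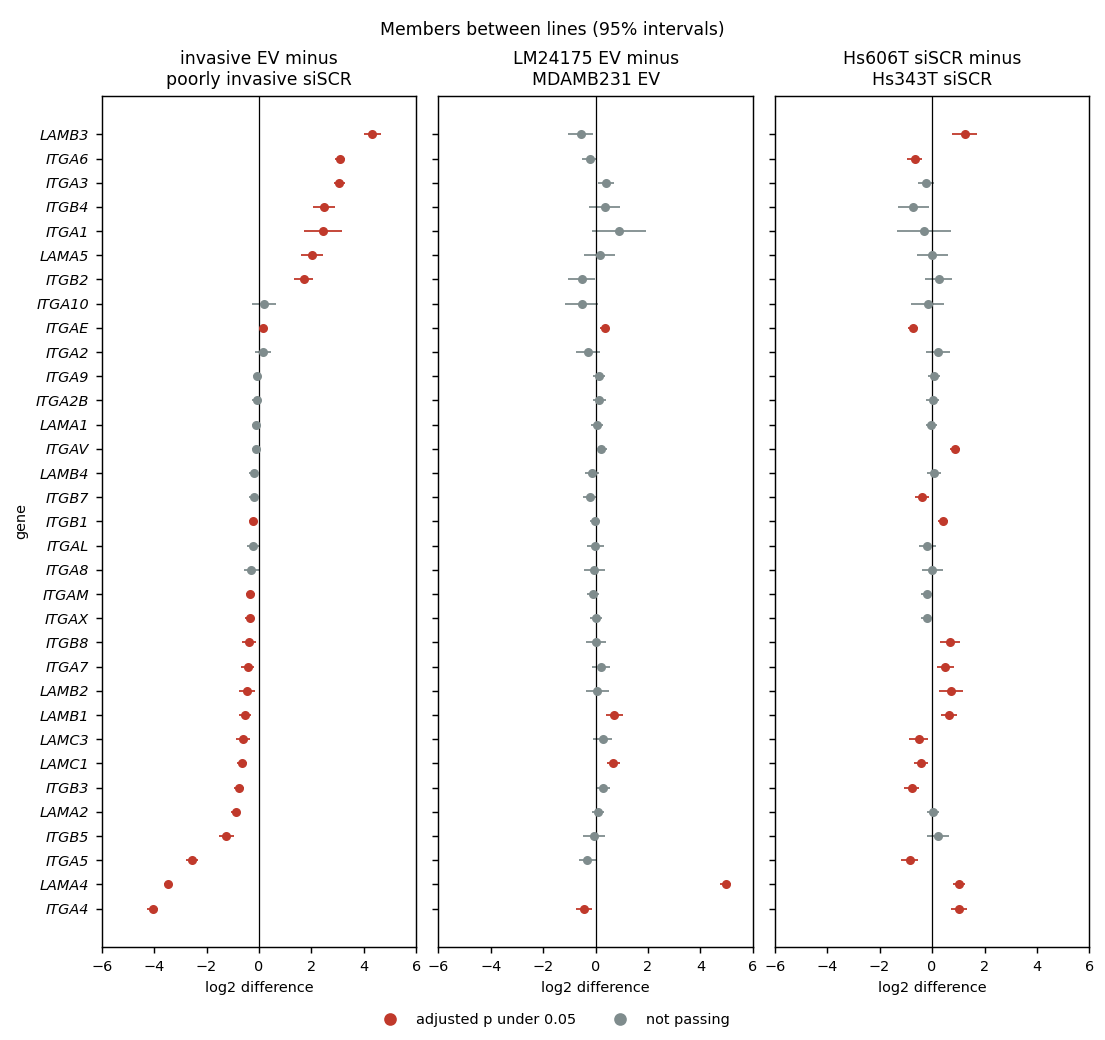
Log2 difference (x axis) of each member (y axis) for 3 comparisons of lines, with 95% intervals of the limma fit; red points have adjusted p under 0.05 over all genes, grey points do not. LAMB3 at 4.33 and ITGA4 at -4.05 are the ends of the left panel, LAMA4 at 4.96 stands alone in the middle panel, and 16 members are red in the right panel.

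Counts of the other lists between the lines are read against the share of all genes called. Between the invasive EV and the siSCR arrays, 2 of 23 ligands were higher and 17 lower, with POSTN, periostin (-9.50), and JAM3, a junction protein (-5.25), the largest falls, and ICAM2, a ligand of β2 integrins (3.93), the largest rise, against 72.9% of all genes called in either direction. Of 15 basement membrane and receptor genes 3 were higher and 9 lower, led by NID2 (-5.96), SPARC (-5.77) and NID1 (-5.29), of which the nidogens link laminin to collagen IV. Of 25 adhesion complex genes 5 were higher and 12 lower, with TNS1, tensin 1, at -5.99, and PARVB, β-parvin, at -3.13. Of 14 membrane partners 2 were higher and 7 lower, with the tetraspanin CD82 at 1.66 and CD81 at -1.30. The medians of these lists were -0.56, -0.66, -0.08 and -0.19, against -0.08 over all genes. Between Hs606T siSCR and Hs343T siSCR, where 36.8% of all genes were called, 7 of 23 ligands were higher and 4 lower (VCAM1 4.94, TNC 2.58, POSTN 2.16), and 7 of 15 basement membrane and receptor genes were higher and 2 lower (FBLN1 2.62, COL4A2 2.42, COL4A1 2.28). In that contrast 6 of 25 adhesion complex genes were higher and 9 lower, and 2 of 14 membrane partners were higher and 3 lower.

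Few members passed between the RECK construct and the empty vector. In LM24175, 0 members were higher and 1 lower in RECK than in EV cells, against 3.44% and 3.27% of all genes (6.70% in either direction). ITGAE, the αE chain that binds E-cadherin in intraepithelial lymphocytes, read 11.20 and 11.00 in LM24175 RECK, against 11.44 and 11.44 in LM24175 EV (-0.34, SE 0.08; adjusted p = 0.0341). Both RECK arrays were lower, by 1.26-fold on average. The call was lost in 7 of 14 alternatives, among them those that left out either LM24175 EV array or replicate 2 of LM24175 RECK, and without both deviating arrays it was -0.44 (adjusted p = 0.00771), the one call of a member then, against 8.07% of all genes. ITGAE in LM24175 EV against MDAMB231 EV uses the same LM24175 EV arrays. The RECK and EV arrays lay apart without overlap for 16 of 33 members, against 47.8% of all genes. Among these, ITGA2 at -0.57 and LAMB2 at -0.56 (adjusted p = 0.137 and 0.138), LAMB1 at 0.39 and LAMB3 at 0.43 did not pass. Without both deviating arrays ITGA2 was -0.38, LAMB2 -0.40, LAMB1 0.31 and LAMB3 0.54, with 1 LM24175 RECK array left. The second LAMC1 probe set passed over all probe sets at -0.35 (adjusted p = 0.0427), the first differed by -0.29 (adjusted p = 0.188). Intervals of the 33 members reached as far as -1.56 to 0.51 for ITGA1, whose LM24175 RECK arrays read 5.49 and 7.16, against 6.74 and 6.96 in LM24175 EV. Its difference of -0.53 became 0.31 without both deviating arrays and passed in neither case.

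In MDAMB231, 0 of 33 members passed in either direction, against 0.276% of all genes. At an unadjusted p under 0.05, 3 of 33 members passed, against 11.6% of all genes. The member with the smallest p was LAMA4, at 4.35 and 4.30 in MDAMB231 RECK, against 4.76 and 4.53 in MDAMB231 EV (-0.32, SE 0.10; adjusted p = 0.250), all 4 near the lower quartile. The widest gap was that of ITGA1 (0.87, 95% interval -0.16 to 1.91), with 6.78 and 6.88 in MDAMB231 RECK, against 5.23 and 6.67 in MDAMB231 EV. Without both deviating arrays it was 0.16, and ITGB4 was lower and passed, alone among the members, against 0.978% of all genes. The difference between the construct responses of LM24175 and MDAMB231 passed for 0 members, against 3.64% of all genes, and for 4 members at an unadjusted p under 0.05, against 18.9%. Leaving out replicate 2 of MDAMB231 EV raised the count of adjusted calls among members and among all genes, in a fit with 1 array left in that group.

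Among the other genes of the lists, set against 6.70% of all genes called in LM24175, calls were made in each list there. In LM24175, 2 of 25 adhesion complex genes rose, FERMT1 and RSU1, a kindlin and an ILK complex partner, by 0.71 and 0.63, and PTK2, focal adhesion kinase, fell by 0.38. Of the membrane partners, the tetraspanins CD9 and CD81 fell, at -0.60 and -0.38, and of the basement membrane list HSPG2, perlecan, at -0.86. Of 23 ligands, ICAM3 rose by 0.72 and MFGE8 fell at -0.43. In MDAMB231 no gene of these 4 lists passed.

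In Hs343T, the arrays labelled siRECK were lower in ITGAE and in the laminin chains LAMA4 and LAMC3, and higher in the integrin chains ITGB8 and ITGB3. Here 2 members were higher and 3 lower than on the siSCR arrays, against 12.0% and 17.4% of all genes (29.3% in either direction), so 15.2% of the members is under the background. ITGB8 read 4.44 and 4.92 in Hs343T siRECK, against 3.60 and 3.63 in Hs343T siSCR (log2 difference 1.06, SE 0.18; adjusted p = 0.000592). The siSCR values and the siRECK value of 4.44 lay under the lower quartile and are not shown to lie above background. All 4 values lay under the median. With the mean of both probe sets the difference was 0.44 and did not pass (adjusted p = 0.0681); the second ITGB8 probe set differed by -0.18 and did not pass. ITGB3 read 7.35 and 7.20 in Hs343T siRECK, against 6.88 and 6.76 in Hs343T siSCR (0.46, SE 0.12; adjusted p = 0.0153). Its 7 probe sets did not move together: another differed by 0.41 without passing, and 1 more was lower, at -0.42 (adjusted p = 0.032). The laminin chain LAMA2 did not pass by its highest probe set (0.26; adjusted p = 0.0901). Another of its probe sets averaged 6.26 in Hs343T siRECK, against 5.57 in Hs343T siSCR, and a further one 6.59 against 5.92. In Hs606T these averaged 5.92 against 5.57 and 6.40 against 5.97. Its lowest probe set did not rise in Hs343T (3.03 against 3.07).

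The falls in Hs343T were small. ITGAE read 10.85 and 10.90 in Hs343T siRECK, against 11.52 and 11.43 in Hs343T siSCR (-0.60, SE 0.08; adjusted p = 0.000152). LAMA4 read 9.53 and 9.56 in Hs343T siRECK, against 10.19 and 9.98 in Hs343T siSCR (-0.54, SE 0.10; adjusted p = 0.00145), and a second LAMA4 probe set was lower, at -0.65 (adjusted p = 0.0298). LAMC3, the γ3 chain, read 5.38 and 5.19 in Hs343T siRECK, against 5.88 and 5.85 in Hs343T siSCR (-0.58, SE 0.17; adjusted p = 0.021). In all 3 both siRECK arrays lay under both siSCR arrays, which held for 20 of 33 members in either direction and for 65.6% of all genes. The call of LAMC3 was lost in 5 of 14 alternatives and that of ITGB3 in 4 of 14, among them the mean of all probe sets, at which ITGB3 differed by 0.02. Without both deviating arrays, which lie outside this contrast but enter the shared spread, ITGA3, ITGA5, ITGA7 and ITGAV passed as well, giving 9 members against 35.9% of all genes.

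**Figure D4:**
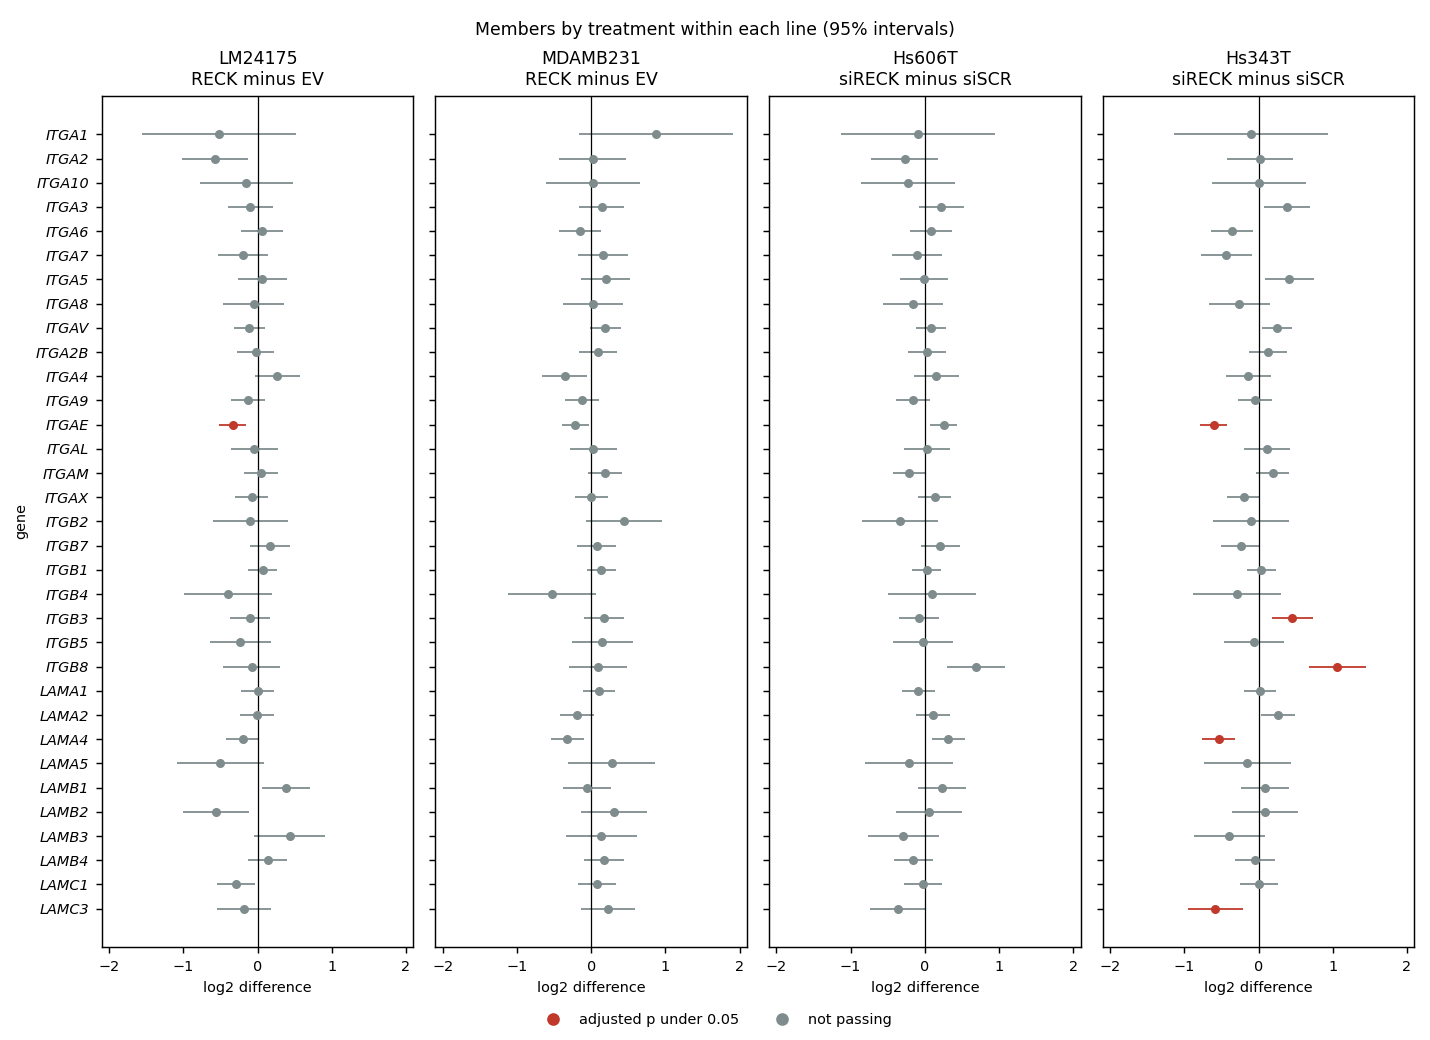
Log2 difference (x axis) of each member (y axis) between treated and control arrays of each line, with 95% intervals of the limma fit; red points have adjusted p under 0.05 over all genes, grey points do not. ITGAE is the red point in LM24175, MDAMB231 and Hs606T have none, and Hs343T has 5, with ITGB8 at 1.06 farthest right.

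In Hs606T, 0 of 33 members passed on the arrays labelled siRECK, against 1.20% of all genes, and 3 of 33 passed at an unadjusted p under 0.05, against 11.5%. ITGB8 came closest, at 4.87 and 5.10 in Hs606T siRECK, against 4.21 and 4.38 in Hs606T siSCR (0.69, SE 0.18; adjusted p = 0.104), with no overlap between arrays. These siSCR values lay under the lower quartile and are not shown to lie above background. LAMA4 read 11.52 and 11.33 in Hs606T siRECK, against 11.10 and 11.13 in Hs606T siSCR (0.31, SE 0.10; adjusted p = 0.222). ITGAE read 11.04 and 10.98 in Hs606T siRECK, against 10.77 and 10.74 in Hs606T siSCR (0.25, SE 0.08; adjusted p = 0.239). LAMA4 and ITGAE thus lay on the other side of the siSCR arrays than in Hs343T, and the test of that difference passed for both. The siRECK response of Hs606T minus that of Hs343T was 0.86 for ITGAE (SE 0.12; adjusted p = 0.000278) and 0.85 for LAMA4 (SE 0.14; adjusted p = 0.00108), the 2 members that passed, both higher, against 11.6% of all genes higher (20.4% in either direction). This test uses the same arrays as the responses it compares. For ITGB8 the responses differed by -0.37 (95% interval -0.92 to 0.18; adjusted p = 0.362).

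In Hs343T 29.3% of all genes were called, and the counts of the 4 lists are read against that share. There 4 of 23 ligands rose and 2 fell, with VCAM1 at 3.37, ICAM1, a β2 integrin ligand, at 2.43, ICAM3 at -1.33 and POSTN at -0.73. Of the basement membrane list 3 of 15 rose, COL4A1 by 1.05, AGRN, agrin, by 1.02 and COL4A2 by 0.73. Of 25 adhesion complex genes 5 rose and 2 fell, with TNS1 at 0.83, ZYX, zyxin, at 0.65, FERMT1 at 0.61 and ITGB1BP1, a negative regulator of β1 integrins, at -0.59. Of 14 membrane partners 3 rose and 2 fell, with the urokinase receptor PLAUR at 0.88, CD82 at 0.85, SLC3A2 at -0.88 and BSG at -0.43. No gene of these 4 lists passed in Hs606T. The response of Hs606T minus that of Hs343T passed for VCAM1 (-4.79), ICAM1 (-3.15), CD82 (-1.53) and AGRN (-1.03), among others. Interferon-response genes moved with these arms: 14 of 14 rose in Hs343T (median 7.47) and 11 of 14 in Hs606T (median 1.68), against a median of -0.06 over all genes in Hs343T. Their part in the members' values was not tested.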

How the data were processed

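The authors deposited a table of log2 values, 1 for each probe set on each array. Per the submitters' processing notes, Partek was used on the scanner files; how probes were summarised and scaled is not given in the sources used here, and base 2 was inferred from the range of values. No detection calls were at hand. The authors' values were not rescaled. Each gene was read from its probe set with the highest mean over 16 arrays, among probe sets with 1 gene symbol in the platform annotation, after 62 control probe sets were left out.

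All 16 arrays entered 1 limma 3.58.1 fit of 8 group means in R 4.3.3 (lmFit, eBayes, 2-sided), with a median residual SD of 0.129 and 8 residual plus 3.72 prior degrees of freedom. Benjamini-Hochberg adjustment ran over all 11963 genes in each comparison, with 0.05 as the threshold. Probe sets tested alone were adjusted over all probe sets. The number of arrays limits the precision. A difference is the first-named group's mean log2 value less that of its reference, with the fit's 95% interval. The same procedure was tested on simulated data.

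The members, the gene lists and the tests were chosen with earlier results of these data known. Every member could be named, and values on each array are given for members that passed in a treatment comparison without overlap of arrays and, between lines, for up to 6 in each direction; some other values were added after they were seen. Of each list, up to 4 passing genes were named in a comparison. Alternatives covered normalization, probe set choice, a filter on low genes, eBayes settings, arrays in the fit, a replicate block, a 1.5-fold minimum and leaving out arrays. Python 3.11.15 with pandas 2.3.3 and matplotlib 3.10.9 made the figures, and promoter sequences are those of RefSeq.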

Additional observations from a re-analysis of the deposited data

Results flagged for a closer look

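The siRECK response differed between the poorly invasive lines for 2 members, by a test of the difference itself in the limma fit, a smaller share (2 of 33) than the 20.4% of all genes that passed it. For ITGAE the response of Hs606T minus that of Hs343T was 0.86 (SE 0.12; adjusted p = 0.000278): both siRECK arrays were above both siSCR arrays in Hs606T and under them in Hs343T. For LAMA4 it was 0.85 (SE 0.14; adjusted p = 0.00108), with the same arrangement of arrays. In neither gene did the Hs606T difference alone pass (adjusted p = 0.239 for ITGAE and 0.222 for LAMA4). Of the 5 LAMA4 probe sets 2 passed in the same test over all probe sets, the second at 1.26 (adjusted p = 0.00792), and the other 3 differed by 0.29 to 0.39 without passing. ITGAE has 1 probe set. In the same test the epithelial keratins KRT8 (1.34), KRT18 (1.94) and KRT19 (1.20), 3 of 8 epithelial genes, and the fibroblast gene FAP (0.87), 1 of 9 mesenchymal genes, were higher too, and their part in the members' values was not tested.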

How the results depend on the processing

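Over 56 pairs of a member (or RECK) and a comparison, 798 of 880 alternatives kept the direction and the side of the threshold, 80 lost the call and 2 changed sign. The sign changed for RECK in MDAMB231 RECK minus EV, at -0.053 with the mean of all probe sets and -0.16 with every probe set tested alone, and it passed in neither. Counts of members moved more. In LM24175 RECK minus EV, 1 member became 0 with each array centred on its median, with only the arrays compared, with a replicate block and with a 1.5-fold minimum, 2 with the mean of all probe sets or every probe set alone, and 0 to 3 when single arrays were left out: 3 without either MDAMB231 EV array, and 0 without either LM24175 EV, MDAMB231 RECK or Hs606T siSCR array or replicate 2 of LM24175 RECK. In MDAMB231 RECK minus EV, the count moved without both deviating arrays and without replicate 2 of MDAMB231 EV, fits with 1 array left in that group. In Hs343T siRECK minus siSCR, 5 became 8 with centring or only the arrays compared, and 2 with a 1.5-fold minimum. It became 9 without the genes under the lower quartile of mean level (3557 of the genes kept). With trend and robust moderation it was 9 as well (3667 of all genes). The count also moved without both deviating arrays and without some single arrays. The construct response difference gave 0 to 6 without single arrays, 6 without replicate 2 of MDAMB231 EV. The siRECK response difference gave 4 with only the arrays compared. Its count also moved without both deviating arrays and without either MDAMB231 EV array. In LM24175 EV minus MDAMB231 EV, 5 became 2 with only the arrays compared, 3 with a 1.5-fold minimum, 10 without both deviating arrays and 3 to 11 without single arrays, 3 without either LM24175 EV array, and 9 or 11 without replicate 1 or 2 of MDAMB231 EV. Between invasive and poorly invasive lines, 23 became 15 with a 1.5-fold minimum, while all genes called went from 8726 to 4558. The cause of these moves was not tested, beyond the fewer arrays or higher bar of those settings. Counts over all genes moved as well, so a count of members is read against its own setting. Over all genes, Hs343T siRECK minus siSCR gave 3511 as reported, 3286 with centring, 3577 with only the arrays compared and 1808 with a 1.5-fold minimum. LM24175 RECK minus EV gave 802, 787, 153 and 343 in the same order. LM24175 EV minus MDAMB231 EV gave 2489, 2455, 1169 and 1144. The siRECK response difference gave 2436, 2315, 3000 and 1774. Same-numbered arrays of a line did not deviate together (r -0.0505 to 0.0106 in the 4 lines), so no pairing by replicate number was visible. Whether such arrays were handled together is not stated in the labels and cannot be read from these correlations. The replicate block moved no other count of members by over 1.5 times. With 2 arrays in a group and no detection calls, small differences and genes under the lower quartile are the least certain.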

Other observations

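In LM24175 RECK minus EV, 2 of 9 mesenchymal genes rose, the collagen chains COL1A2 (2.20) and COL3A1 (1.52), against 3.44% of all genes. Both also passed in the construct response of LM24175 minus that of MDAMB231 (2.34 and 1.58). In LM24175 none of the 8 epithelial, 7 leukocyte, 5 endothelial or 4 platelet and megakaryocyte genes passed in limma. In MDAMB231 RECK minus EV no gene of these 5 lists passed. In Hs343T siRECK minus siSCR, 3 of 8 epithelial genes, 1 of 9 mesenchymal genes and 1 of 5 endothelial genes fell, the last PECAM1 (-0.64), against 17.4% of all genes. In Hs606T siRECK minus siSCR, 1 of 8 epithelial genes rose and no gene of the other 4 lists passed.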
